A study of Mus musculus with 9 samples.

Results

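The miRNAs encoded within the Hox gene clusters were measured in the tibialis anterior (TA) muscle, a muscle of the lower hindlimb, of control mice and of mice bearing Lewis lung carcinoma (LLC) tumors, a model of cancer cachexia. They are 7 of 1915 mature miRNAs counted and were chosen by name, as the arms of the miR-10, miR-196 and miR-615 hairpins: mmu-miR-10a-5p, mmu-miR-10a-3p, mmu-miR-10b-5p, mmu-miR-10b-3p, mmu-miR-196a-5p, mmu-miR-196b-5p and mmu-miR-615-3p. Of these, 6 were among the 304 expressed miRNAs, defined by more than 32 counts in at least 1 library, and miR-10b-3p, with 16 to 31 counts, was not. The LLC group (n = 5 libraries, numbered 1, 2, 3, 5 and 6) came from C57BL/6J mice with a labelled age of 10 weeks. They had received 750000 LLC cells in 100 µL of PBS in each flank, and the muscle was taken 22 days later. The control group (n = 4) came from mice of the same strain and age that had received PBS alone. The series' design text gives another strain, C57BL/10, and a younger age, which could not be reconciled with the sample labels. According to the study's methods each library is from a separate mouse, so a replicate number shared by both groups names different animals. The library of a further LLC mouse was not analysed here. The 4 control libraries held 4992339 to 6548379 counts and the 5 LLC libraries 6216566 to 7833161, so that 3 counts, taken as the limit that a count of 0 allows, correspond to 0.344 to 0.593 CPM (counts in a library scaled to 1000000, with TMM factors). No pair of libraries of a group was close enough in its counts to be a copy.

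The Hox genes encode transcription factors that give cells their position along the body axis, and the order of the genes in each cluster follows the order of their expression along it. The miR-10 and miR-196 hairpins sit among these genes, are expressed in similar axial domains, and their miRNAs pair through the seed with sites in several Hox mRNAs, while miR-615 lies in an intron of a Hox gene and is less well understood. A hairpin gives a duplex of a 5p and a 3p arm, of which usually a single arm is retained in Argonaute and the other is degraded.

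Mature sequences were taken from RefSeq on the GRCm38.p6 build, where 7 of 7 matched by name, and are shown because the paralogs differ in so few bases. They are written 5′ to 3′ with the seed, bases 2 to 8, in capitals. The miR-10 5p arms share a seed, and so do the miR-196 5p arms, whereas each 3p arm has a seed of its own.
mmu-miR-10a-5p: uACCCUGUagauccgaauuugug
mmu-miR-10b-5p: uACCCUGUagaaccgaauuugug
mmu-miR-196a-5p: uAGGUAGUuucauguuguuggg
mmu-miR-196b-5p: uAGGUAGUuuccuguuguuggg
mmu-miR-10a-3p: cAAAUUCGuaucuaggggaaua
mmu-miR-10b-3p: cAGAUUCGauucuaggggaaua
mmu-miR-615-3p: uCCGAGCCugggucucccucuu
mmu-miR-100-5p: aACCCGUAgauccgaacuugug
Counting from 1 at the 5′ end and writing the base of the a paralog before that of the b paralog, miR-10a-5p and miR-10b-5p differ by U12A alone, and miR-196a-5p and miR-196b-5p by A12C alone. The miR-10 3p arms differ by A3G, U9A and A10U, the first of these inside the seed. miR-100-5p, which lies outside the Hox clusters, stands for the miR-99 and miR-100 relatives of miR-10, whose seed is a different one. The stated alignment asked for no mismatch in the first 8 bases, and both 5p paralog pairs differ beyond that stretch, so some reads could have been counted for the other paralog, which was not tested.

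In the GRCm38 annotation the hairpins lie in all 4 Hox clusters. Mir10b (chr2:74726070-74726137, plus strand) is in introns of Hoxd3 and Hoxd4 transcripts. Mir10a (chr11:96317165-96317274, plus strand) lies between Hoxb5 and Hoxb4 and overlaps no annotated transcript of its strand. miR-196a-5p has a source in each of 2 clusters with the same mature sequence, Mir196a-1 (chr11:96265164-96265265, plus strand) between Hoxb13 and Hoxb9, and Mir196a-2 (chr15:102973350-102973434, plus strand) between Hoxc10 and Hoxc9, in an intron of an annotated Hoxc5 transcript. Mir196b (chr6:52230081-52230165, minus strand) overlaps exon sequence annotated for Hoxa9, and Mir615 (chr15:103014910-103015001, plus strand) lies in an intron of Hoxc5. Another miRNA gene of the annotation, Gm44463 in the Hoxd cluster (chr2:74701006-74701142, minus strand), was not matched to the count tables.

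miR-10b-5p was among the 2 most abundant miRNAs of every TA library, and its level spread widely in both groups. It made up 10.1%, 12.6%, 19.2% and 17.0% of all counts in Control 1 to 4, and 25.1%, 19.3%, 13.6%, 32.4% and 12.4% in LLC 1, 2, 3, 5 and 6. Together with miR-10a-5p it took 14.4% to 25.1% of the counts of control libraries and 17.0% to 42.3% of those of LLC libraries. These shares and ranks are of the counts as deposited. In them miR-1a-3p, usually abundant in muscle, had only 62 to 171 counts, and the reason was not tested. A miRNA that takes so much of a library lowers the share left for all others, so CPM were scaled with TMM factors, which ranged from 0.762 in LLC 5 to 1.15 in Control 2.

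After this scaling miR-10b-5p stood at 88884, 108920, 201845 and 168033 CPM in Control 1 to 4 and at 285905, 195029, 126793, 425643 and 111100 CPM in LLC 1, 2, 3, 5 and 6. LLC 5 and LLC 1 were above every control, LLC 3 and LLC 6 lay between Control 2 and Control 4, and the groups overlapped. The mean was 141921 ± 52200 CPM (SD, n = 4) for controls and 228894 ± 129815 CPM (n = 5) for LLC mice. The log2-fold change was 0.69 (SE 0.356, 95% interval -0.07 to 1.45, adjusted p = 0.296 by the quasi-likelihood test of edgeR and Benjamini-Hochberg adjustment, as for all fold changes). Without LLC 5 the log2-fold change of miR-10b-5p was 0.34, so that 1 mouse carried much of it. As whole muscle was sequenced, more miRNA per cell and more cells of a type that holds it cannot be told apart.

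miR-10a-5p, its paralog from the Hoxb cluster, showed a similar order of libraries at a lower level. It measured 37509, 43963, 62089 and 62061 CPM in Control 1 to 4 and 82634, 76652, 50388, 129205 and 41475 CPM in LLC 1, 2, 3, 5 and 6. LLC 1, LLC 2 and LLC 5 exceeded every control, and the other two LLC libraries did not. The log2-fold change was 0.57 (SE 0.279, 95% interval -0.03 to 1.16, adjusted p = 0.296, edgeR), and 0.29 without LLC 5.

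The miR-196 5p arms were far scarcer than the miR-10 5p arms and varied less, with a highest value 2.06 (miR-196a-5p) and 2.10 (miR-196b-5p) times the lowest, against 3.45 (miR-10a-5p) and 4.79 (miR-10b-5p). miR-196a-5p, which restricts Hox gene expression in the posterior trunk and hindlimb, measured 670, 858, 983 and 942 CPM in Control 1 to 4 and 1062, 1005, 898, 1376 and 1024 CPM in LLC 1, 2, 3, 5 and 6. Every LLC library but LLC 3 was above all controls, with Control 1 the lowest of the 9. The means were 863 ± 139 CPM and 1073 ± 180 CPM, and the log2-fold change of 0.31 (SE 0.142, 95% interval 0.01 to 0.62) had an unadjusted p of 0.0426 and an adjusted p of 0.293 (edgeR). It was 0.21 without LLC 5 and likewise 0.21 without Control 1. miR-196b-5p, from the Hoxa cluster, measured 298, 333, 449 and 415 CPM in Control 1 to 4 and 444, 414, 361, 626 and 389 CPM in LLC 1, 2, 3, 5 and 6. Only LLC 5 exceeded every control, and the log2-fold change of miR-196b-5p was 0.26 (SE 0.166, adjusted p = 0.396, edgeR), 0.11 without LLC 5 and 0.16 without Control 1. The ratio of miR-196a-5p to miR-196b-5p counts stayed between 2.19 and 2.63 in the 9 libraries.

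miR-615-3p had no peak in LLC 5. It measured 58.8, 50.7, 55.4 and 71.5 CPM in Control 1 to 4 and 41.5, 65.3, 56.5, 64.2 and 53.4 CPM in LLC 1, 2, 3, 5 and 6. LLC 1, with the second highest miR-10b-5p, had the lowest miR-615-3p. The log2-fold change was -0.07 (SE 0.154, 95% interval -0.40 to 0.26, adjusted p = 0.789, edgeR), and its sign turned without Control 4 or without LLC 1.

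**Figure D1:**
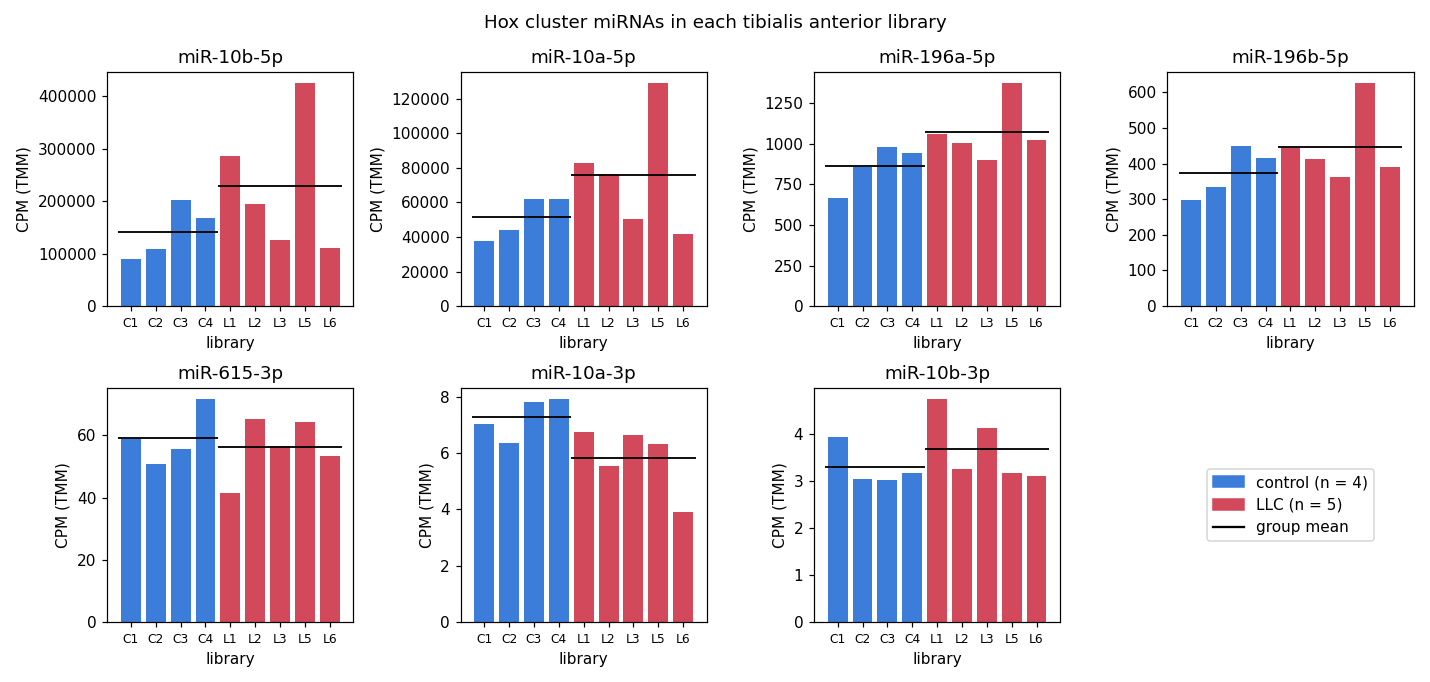
CPM after TMM scaling (vertical axes, from 0) of the 7 Hox cluster miRNAs in Control 1 to 4 (C1 to C4, blue) and LLC 1, 2, 3, 5 and 6 (L1 to L6, red), with black lines at the group means. The 4 miR-10 and miR-196 5p arms peak in LLC 5, and the groups overlap in every panel.

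No miRNA of the 304 expressed passed an adjusted p of 0.05 with a fold change of 1.5 in edgeR's test, so the background of calls was 0%, and 0 of the 6 Hox cluster miRNAs was called. At an unadjusted p of at most 0.05, 50 of the 304 passed (16.4%), with 16 (5.26%) higher in the LLC group, and the single Hox cluster miRNA among them was miR-196a-5p. DESeq2 called 8 of the 304, with no Hox cluster miRNA among them. The CPM ranges of control and LLC libraries were separate for 18 of the 304 (5.92%) and for 0 of the 6. The median log2-fold change was 0.29 over the 6, with 4 higher and 2 lower, and -0.02 over all 304, with 141 higher and 163 lower. With library totals alone in place of TMM the median over all 304 was -0.17, and the log2-fold change was 0.48 for miR-10b-5p, 0.36 for miR-10a-5p, 0.16 for miR-196a-5p, 0.09 for miR-196b-5p, -0.48 for miR-10a-3p and -0.22 for miR-615-3p. With no minimum on counts, where 22 of 932 miRNAs (2.36%) were called, miR-10b-5p (log2-fold change 0.72, adjusted p = 0.00425, edgeR) and miR-10a-5p (0.60, adjusted p = 0.0191) were among the calls, while their CPM still overlapped between the groups.

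**Figure D2:**
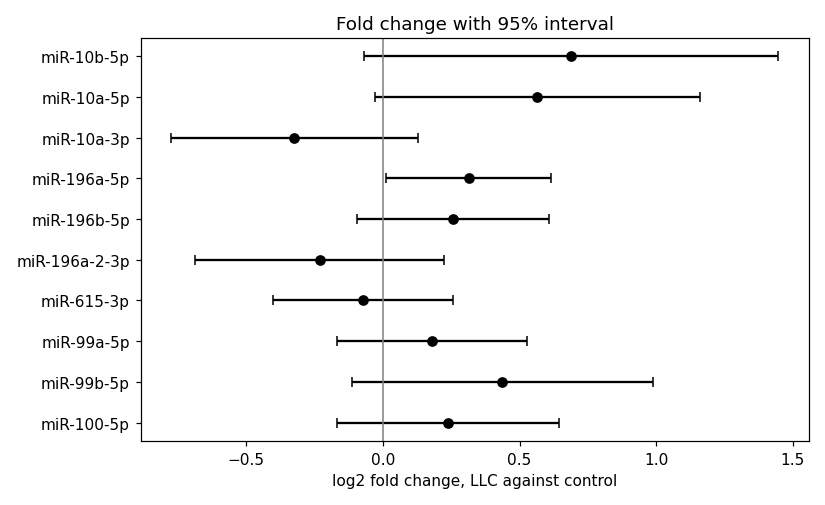
log2-fold change of the LLC group against the control group (horizontal axis; points, with 95% intervals from edgeR as bars) for the 6 expressed Hox cluster miRNAs, miR-196a-2-3p and the relatives miR-99a-5p, miR-99b-5p and miR-100-5p. Only the interval of miR-196a-5p, 0.01 to 0.62, leaves out 0, and none passed the adjusted threshold.

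The 3p arms of miR-10, which are discarded from most duplexes, were found at less than 10 CPM in every library and did not share the peak of their 5p partners in LLC 5. miR-10a-3p measured 7.04, 6.36, 7.79 and 7.90 CPM in Control 1 to 4 and 6.75, 5.54, 6.64, 6.32 and 3.90 CPM in LLC 1, 2, 3, 5 and 6, from 32 to 52 counts. LLC 2, LLC 5 and LLC 6 were below every control, and the log2-fold change was -0.32 (SE 0.212, 95% interval -0.77 to 0.13, adjusted p = 0.407, edgeR), and -0.17 without LLC 6. miR-10b-3p measured 3.93, 3.05, 3.01 and 3.16 CPM in Control 1 to 4 and 4.73, 3.26, 4.12, 3.16 and 3.10 CPM in LLC 1, 2, 3, 5 and 6. Across libraries its highest value was 1.57 times its lowest, against 4.79 times for miR-10b-5p. With lower minimums on counts its log2-fold change was 0.17 to 0.21, with adjusted p of 0.678 to 0.794 (edgeR).

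The ratio of the 2 arms of a hairpin is taken within a library and needs no scaling. For miR-10a there were 5327, 6915, 7969 and 7853 reads of the 5p arm for each 3p read in Control 1 to 4, and 12235, 13840, 7587, 20455 and 10641 in LLC 1, 2, 3, 5 and 6. Every LLC library but LLC 3 lay above all controls. The mean log2 ratio was 12.74 ± 0.268 for controls and 13.57 ± 0.521 for LLC mice, a difference of 0.82 or 1.77-fold (two-sided exact permutation test, p = 0.0317, and 0.0952 after Benjamini-Hochberg adjustment over the 3 ratios tested). The smallest p that the 126 relabelings of 4 and 5 mice can give is 0.00794.

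For miR-10b there were 22633, 35755, 67054 and 53157 reads of the 5p arm for each 3p read in Control 1 to 4, and 60472, 59864, 30791, 134768 and 35894 in LLC 1, 2, 3, 5 and 6. Only LLC 5 was above every control. The log2 ratios of 15.30 ± 0.679 and 15.74 ± 0.826 differed by 0.44 (exact permutation p = 0.429, adjusted 0.484), and by 0.13 without LLC 5, 0.16 without Control 1 and 0.67 without Control 3. Seen from the other arm, Control 1 had the highest and LLC 5 the lowest share of 3p reads of all libraries, for both hairpins. Control 1 had 188 miR-10a-3p reads per 1000000 reads of both arms (95% Wilson interval 143 to 246) and LLC 5 had 48.9 (34.6 to 69.0). For miR-10b the values were 44.2 (30.8 to 63.5) and 7.42 (4.57 to 12.1). As extremes, these libraries do not stand for their groups, which overlapped for both hairpins. These intervals cover counting error only. PCR copies of a molecule could not be recognised in these libraries, so the intervals may be too narrow even for that error.

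**Figure D3:**
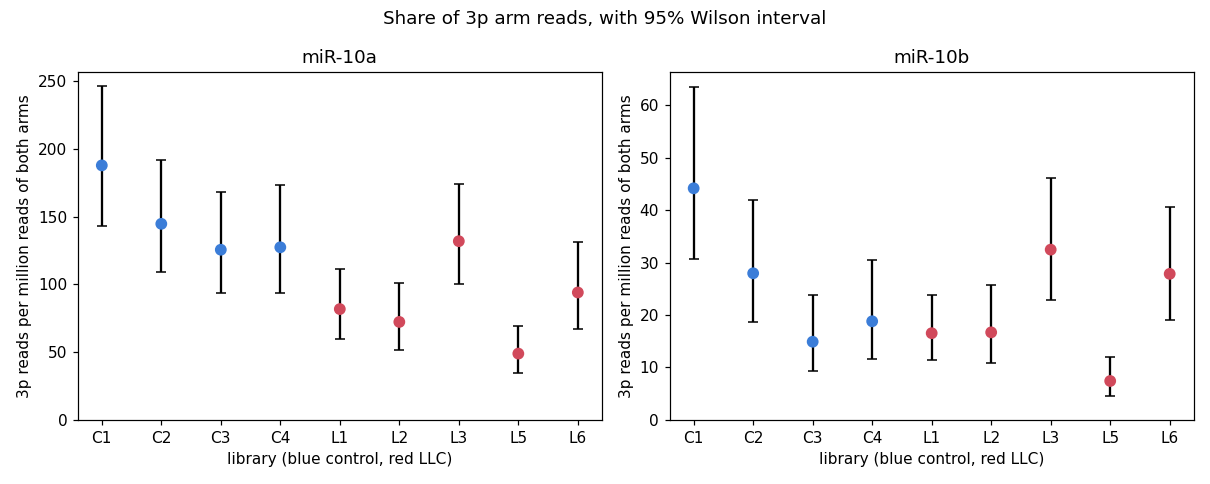
Reads of the 3p arm per 1000000 reads of both arms (vertical axes, from 0) for miR-10a (left) and miR-10b (right) in each control (blue) and LLC (red) library, with 95% Wilson intervals. For miR-10a, LLC 1, 2, 5 and 6 lie below all controls and LLC 3 does not, and for miR-10b only LLC 5 does.

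The ratio of the paralogs overlapped between the groups. There were 2.37, 2.48, 3.25 and 2.71 miR-10b-5p reads for each miR-10a-5p read in Control 1 to 4, and 3.46, 2.54, 2.52, 3.29 and 2.68 in LLC 1, 2, 3, 5 and 6. The mean log2 ratios, 1.42 ± 0.202 and 1.52 ± 0.217, differed by 0.10, less than their SD (exact permutation p = 0.484, adjusted 0.484), and by 0.03 without LLC 1 to 0.19 without Control 3.

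Across the 9 libraries the levels counted for the 5p arms of miR-10a and miR-196 rose and fell with miR-10b-5p. For miR-615-3p and the 3p arms no relation passed the test. As miR-10a-5p differs from miR-10b-5p by U12A alone, reads counted for the wrong paralog could add to its r, which was not tested. Reads of miR-196a-5p and miR-196b-5p could be exchanged in the same way. The relation was computed on log2 CPM for 6 neighbours, with two-sided exact permutation tests adjusted over the 6. For miR-10a-5p Pearson's r was 0.98 (exact p = 1.93e-05, adjusted 0.000116) and Spearman's rho 0.97 (exact p = 0.000165, adjusted 0.000992). For miR-196b-5p r was 0.94 (exact p = 7.72e-05, adjusted 0.000231) and rho 0.95 (exact p = 0.000353, adjusted 0.00106). For miR-196a-5p r was 0.86 (exact p = 0.00164, adjusted 0.00328) and rho 0.82 (exact p = 0.0108, adjusted 0.0215). Between deviations from the group means r was 0.98, 0.93 and 0.84 for these 3, and 0.60 for miR-10a-3p (exact permutation p = 0.146, adjusted 0.219).

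When LLC 5 and Control 1, the libraries farthest from the median of miR-10b-5p, were left out, r was 0.95 for miR-10a-5p and 0.86 for miR-196b-5p (permutation p adjusted 0.00833 and 0.0446, n = 7). It fell to 0.66 for miR-196a-5p (exact permutation p = 0.111, adjusted 0.222), so the relation of miR-196a-5p no longer passed without those libraries. For miR-196a-5p, r without LLC 5 alone was 0.74 (adjusted exact permutation p = 0.0525), just short of the threshold. Without Control 1 alone it was 0.85 (adjusted exact permutation p = 0.0131) and passed. The call also depended on the scaling, as given below. The other neighbours had r of 0.19 (miR-10a-3p, exact permutation p = 0.622, adjusted 0.933), 0.03 (miR-10b-3p, 0.940, adjusted 0.945) and 0.03 (miR-615-3p, 0.945, adjusted 0.945). Their rho was 0.02, 0.05 and 0.10 (exact permutation p = 0.982, 0.912 and 0.810). Without the same 2 libraries their r became 0.45, 0.48 and -0.21.

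**Figure D4:**
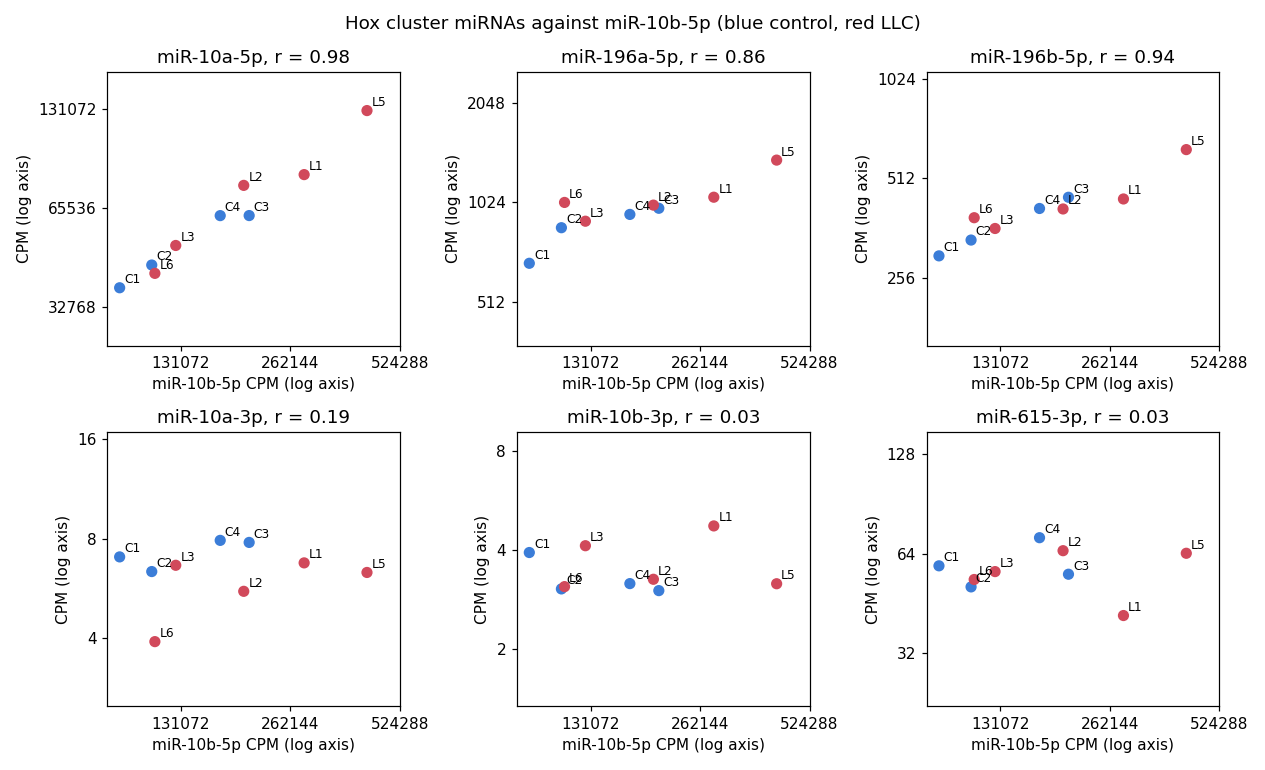
CPM of 6 Hox cluster miRNAs (vertical log axes) against CPM of miR-10b-5p (horizontal log axis) in each control (C, blue) and LLC (L, red) library. miR-10a-5p (r = 0.98), miR-196b-5p (0.94) and miR-196a-5p (0.86) climb from Control 1 to LLC 5, and in the lower panels r is 0.03 to 0.19.

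Such correlations were common in these libraries and depended on the scaling. Over the 303 other expressed miRNAs the median r with miR-10b-5p was -0.15, the 5th percentile -0.87 and the 95th 0.86, and 34 of the 303 (11.2%) had an r at least as far from 0 as that of miR-196a-5p. Counted from the highest r, miR-10a-5p ranked 2nd, miR-196b-5p 6th and miR-196a-5p 15th. With library totals alone in place of TMM the median r was -0.70, and the values were 0.96 for miR-10a-5p, 0.68 for miR-196b-5p (adjusted permutation p = 0.101) and 0.31 for miR-196a-5p (0.428), so that miR-10a-5p was the single neighbour past the threshold.

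**Figure D5:**
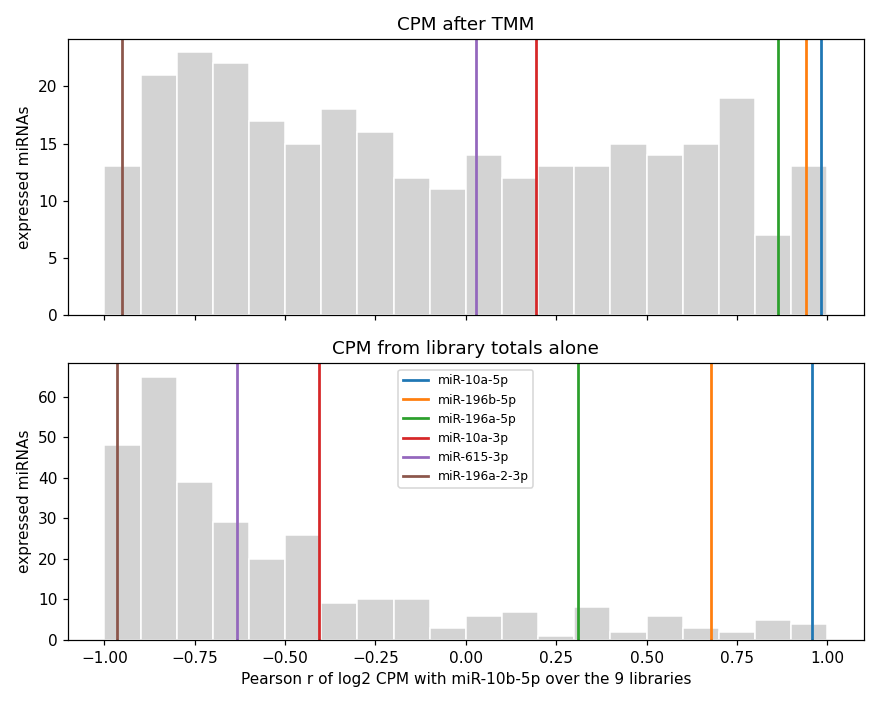
Number of expressed miRNAs (vertical axis) by Pearson's r of log2 CPM with miR-10b-5p over the 9 libraries (horizontal axis), after TMM (upper panel) and with library totals alone (lower panel), with colored lines at 6 miRNAs of the Hox clusters. The median of all 303 moves from -0.15 to -0.70, miR-10a-5p stays near the right edge and miR-196a-2-3p near the left edge in both panels.

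The remaining arms of these hairpins were rare. miR-196a-2-3p, which marks the Hoxc copy of miR-196a, had 36 to 102 counts, whereas miR-196a-1-3p of the Hoxb copy had 0 counts in all 9 libraries, which allows a level of up to 0.344 to 0.593 CPM. miR-196a-2-3p measured 13.1, 13.4, 9.03 and 10.3 CPM in Control 1 to 4 and 7.09, 10.8, 12.0, 7.11 and 11.7 CPM in LLC 1, 2, 3, 5 and 6, with a log2-fold change of -0.23 (SE 0.214, adjusted p = 0.556, edgeR), and of -0.14 without Control 2, LLC 1 or LLC 5 in turn. It was lowest in LLC 1 and LLC 5, where miR-10b-5p and miR-196a-5p were highest. Its r with miR-10b-5p was -0.95, rank 302 of 303, and it was singled out after the values were seen. miR-196b-3p (9 to 24 counts) and miR-615-5p (5 to 27 counts) were below the minimum for a test.

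Among miRNAs outside the Hox clusters, the 5 with a mean of at least 10 CPM that were most like miR-10b-5p over the 9 libraries were miR-191-5p (r = 0.99), miR-204-5p (0.98), miR-99b-5p (0.95), miR-342-3p (0.93) and miR-1943-5p (0.93), given as a description. miR-191-5p measured 11657, 12135, 21556 and 20404 CPM in Control 1 to 4 and 29116, 22046, 17314, 40769 and 13585 CPM in LLC 1, 2, 3, 5 and 6, also highest in LLC 5 and LLC 1. miR-22-3p, the lowest at -0.97, was noted after the values were seen. The relatives miR-99a-5p, miR-99b-5p and miR-100-5p had log2-fold changes of 0.18, 0.44 and 0.24 (adjusted p = 0.546, 0.344 and 0.494, edgeR), all 3 higher and none called, and r of 0.75, 0.95 and 0.78. When a mouse was left out the log2-fold changes of these relatives ran from 0.04, 0.17 and 0.07 (without LLC 5) to 0.30, 0.61 and 0.37 (without LLC 6), miR-100-5p was 0.15 without LLC 2, and with library totals alone they were 0.01, 0.24 and 0.06. Their r was 0.32, 0.91 and 0.53 without LLC 5 and Control 1, and 0.10, 0.89 and 0.35 with library totals alone, so that of the 3 relatives miR-99b-5p alone kept a high r.

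Marker miRNAs checked the tissue label. Of 6 skeletal muscle markers 5 were expressed, and their summed level was 21902 to 30874 CPM for controls and 20862 to 25266 CPM for LLC mice, most of it miR-133a-3p (17440 to 25203 CPM) and most of the rest miR-133b-3p (3404 to 5644 CPM). miR-1a-3p, a muscle miRNA usually abundant in this tissue, had only 62 to 171 counts, and miR-206-3p 0 to 3. miR-499-5p had 18 to 49 counts and miR-208b-3p 15 to 42, so the check of the muscle label rests on miR-133a-3p and miR-133b-3p. The hepatocyte marker miR-122-5p had at most 1 count, and of the 2 neuron markers miR-124-3p had 0 to 4 counts and miR-9-5p 16 to 48.

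Marker lists of other cell types also differed between libraries. The 3 erythroid markers, led by miR-451a, summed to 215 to 325 CPM for controls and 92.4 to 220 CPM for LLC mice, lowest in LLC 1 (92.4) and LLC 5 (110), and all 3 were lower at an unadjusted p of at most 0.05 (edgeR) with 0 past the adjusted threshold. The 5 leukocyte markers, led by miR-150-5p, summed to 691 to 800 CPM for controls and 583 to 742 CPM for LLC mice, also lowest in LLC 1 (583) and LLC 5 (638), with 1 higher (miR-223-3p) and 1 lower (miR-150-5p) at that unadjusted p. The sum of the 3 fibroblast markers was highest in LLC 5 (3300 CPM against 1759 to 2371 CPM in the other libraries), through miR-199a-3p at 3122 CPM. The other fibroblast markers did not share that peak, as miR-199a-5p was at its lowest there (154 CPM) and was the 1 of the 3 lower in the LLC group at an unadjusted p of at most 0.05, while miR-214-3p, at 24.7 CPM, was below every control. The sum of the 2 smooth muscle markers was highest in LLC 1 (94775 CPM against 49377 to 69687 CPM), through miR-143-3p at 93177 CPM, whereas miR-145a-5p was 1599 CPM there and 1401 to 1969 CPM over all libraries. The 2 endothelial markers summed to 26211 to 33929 CPM for controls and 24162 to 29972 CPM for LLC mice, mostly miR-126a-5p. The other one, miR-126a-3p, was lower in LLC mice at an unadjusted p of 0.0331 (log2-fold change -0.31, adjusted p = 0.284, edgeR), lowest in LLC 5 (1781 CPM) and LLC 1 (1970 CPM). Across all libraries the log2 sums had a Pearson's r with miR-10b-5p of -0.78 (erythroid), -0.73 (leukocyte) and -0.63 (skeletal muscle). The r was 0.19 for the endothelial, 0.51 for the smooth muscle and 0.68 for the fibroblast list. The part of these cell types in the miR-10 values was not tested.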

How the data were processed

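Small RNA libraries (TruSeq Small RNA, single-end, 1 TA muscle each) were aligned by the authors to the mature miRNAs of miRBase with Bowtie, and the deposited files hold raw counts for 1915 miRNAs per library, without normalization. The submitters' processing notes also name FastQC, HTSeq and DESeq2. Alignment was not repeated. Groups and replicate numbers came from the sample labels.

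Fold changes were fitted by edgeR 4.0.16 under R 4.3.3 (TMM, quasi-likelihood F test), with Benjamini-Hochberg adjustment over 304 expressed miRNAs (over 32 counts in some library). A miRNA was called where the adjusted p did not exceed 0.05 and its level differed by 1.5-fold or more. CPM are given as mean ± SD. Correlations used log2 CPM (prior count 2), ratios used counts plus 0.5, and both used two-sided exact permutation over mice (scipy 1.17.1). Total counts per library were 4992339 to 7833161. Genes were placed with GENCODE M21. Alternatives were other scalings, minimums and tests (DESeq2 1.42.0, limma 3.58.1 with voom), a replicate block, and leaving out each mouse.

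miRNAs named were the 7, the other arms of their hairpins, the miR-99 and miR-100 relatives, the 5 others with a mean of at least 10 CPM and the highest r with miR-10b-5p, and cell type markers. The members, lists and rules were chosen with earlier results of these data known.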

Additional observations from a re-analysis of the deposited data

Results flagged for a closer look

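Each group's values of the Hox cluster miRNAs and ratios were checked for a sample far from the others (Dixon's criterion at 95%), in 20 groups of 4 or 5 libraries, of which chance flags about 1. The single such value was miR-10b-3p in Control 1, at 3.93 CPM (29 counts), against 3.01 to 3.16 CPM in the other control libraries. The gap was 0.835 of the range of the control group.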

How the results depend on the processing

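The count of called miRNAs was 0 and rose to 22 with no minimum on counts and to 8 with DESeq2. Leaving out 1 mouse gave 0 to 8 calls, with 8 without LLC 3 and 1 without LLC 1. The replicate block gave 0 calls with 2 residual degrees of freedom, and ratio differences of 0.71 (miR-10a arms), 0.35 (miR-10b arms) and 0.07 (paralogs), where the smallest p possible is 0.25. Same-numbered mice share only a number (mean r of deviations -0.19). The log2-fold change of miR-10b-5p ranged from 0.34 to 0.91 and that of miR-10a-5p from 0.29 to 0.74 over 20 alternatives. Leaving out 1 mouse gave 0.21 to 0.39 for miR-196a-5p, 0.11 to 0.36 for miR-196b-5p and -0.38 to -0.17 for miR-10a-3p. The difference in the miR-10b arm ratio ranged from 0.13 to 0.67 and that of the paralogs from 0.03 to 0.19 over 12 alternatives. The difference in the miR-10a arm ratio ranged from 0.64 to 0.99 over 12 alternatives, with adjusted exact permutation p of 0.0857 to 0.50. The log2-fold change of miR-615-3p ran from -0.13 to 0.044 when a mouse was left out, and was 0.019 without LLC 1.

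The 3 correlated neighbours became 1 with library totals alone and 2 without LLC 5. With library totals alone r was -0.41 for miR-10a-3p, -0.63 for miR-10b-3p and -0.63 for miR-615-3p. It was -0.13 for miR-10b-3p between deviations from the group means and -0.21 for miR-615-3p without LLC 5 and Control 1. Leaving out 1 mouse gave r of -0.15 to 0.32 for miR-10a-3p, -0.40 to 0.24 for miR-10b-3p and -0.24 to 0.51 for miR-615-3p. The cause of these changes was not tested. Depth limits the 3p arms, which had 16 to 52 counts.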
